A study of Mus musculus with 17 samples.

Results

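The 4 genes of 2 transcription factor families followed here are Pou4f1 and Pou4f2 (the POU factors Brn3a and Brn3b) and Tfap2b and Tfap2d (AP-2 beta and AP-2 delta), measured in mouse brain by RNA-seq, ATAC-seq, H3K27ac CUT&RUN and single-cell RNA-seq (scRNA-seq). They make up 4 of the 20328 genes listed in the RNA-seq table, taken by gene symbol, and all 4 are among the 19300 genes that passed the filter on low counts. The set was selected on RNA-seq values of these 5 libraries, so their RNA-seq levels and fold changes are given as a description, without a test.

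The mice were female ICR with the wild-type genotype, and the tissue is labeled only as brain. Healthy controls (sham) gave 2 RNA-seq libraries. The 6-OHDA-induced Parkinson's disease (PD) model, in which the catecholamine neurotoxin 6-hydroxydopamine was injected on 1 side into the substantia nigra at 8 weeks of age and followed by saline, gave 1 library. The NDST3-treated PD model received the same lesion and, 5 days later, an AAV9 vector in the substantia nigra that carries human NDST3, a heparan sulfate-modifying enzyme, under the CMV promoter, which is not restricted to 1 cell type; it gave 2 libraries. ATAC-seq gave 1 library per group, CUT&RUN gave 2 per group that share 1 value, and the scRNA-seq values cover the 6-OHDA and 6-OHDA+NDST3 groups with 1 library each. The study names the substantia nigra in a comparison of control and lesioned expression, but the sources used here do not say how the tissue of these libraries was cut out, the number of animals per library, or that replicates of a group came from separate mice, so the spread between them may be technical.

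Brn3 factors bind DNA through a POU-specific domain and a homeodomain. Pou4f1 is known from medial habenula neurons and sensory ganglia, Pou4f2 from retinal ganglion cells, and both are also expressed by neurons of the midbrain roof, the tectum. AP-2 factors bind GC-rich palindromes as dimers through a basic helix-span-helix domain. Tfap2b is known from neural crest, kidney and midbrain neurons, and Tfap2d from the developing tectum.

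In GRCm38, with the RefSeq annotation, Pou4f1 spans chr14:104461675-104468118 on the minus strand with 3 exons, and Pou4f2 spans chr8:78433009-78436647 on the minus strand with 2 exons. Tfap2d (chr1:19103022-19173948) and Tfap2b (chr1:19208908-19238845) lie on the plus strand of 1 chromosome, 34959 bases apart with 0 RefSeq genes wholly between them, and their curated transcripts have 7 to 8 exons each. Tfap2d is overlapped by the predicted genes Gm15825 and Gm10075, and its counts could include reads of either. The stretches upstream of the starts are shown for 3 of the genes, because the pair of Brn3 genes and the neighboring AP-2 gene, which moved together below, do not share base composition there. They come from RefSeq (GRCm38.p6) and run 5′ to 3′ on the gene's strand, with capitals on GC boxes. They cover chr14:104468119-104468249 for Pou4f1, chr8:78436648-78436897 for Pou4f2 and chr1:19102772-19103021 for Tfap2d.
Pou4f1: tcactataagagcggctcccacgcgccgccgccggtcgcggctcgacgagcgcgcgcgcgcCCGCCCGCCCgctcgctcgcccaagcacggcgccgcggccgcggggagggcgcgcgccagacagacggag
Pou4f2: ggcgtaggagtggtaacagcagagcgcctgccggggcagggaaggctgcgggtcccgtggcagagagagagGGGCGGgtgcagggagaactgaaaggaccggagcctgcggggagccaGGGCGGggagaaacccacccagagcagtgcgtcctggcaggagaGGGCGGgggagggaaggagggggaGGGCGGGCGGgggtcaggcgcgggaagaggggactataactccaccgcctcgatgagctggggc
Tfap2d: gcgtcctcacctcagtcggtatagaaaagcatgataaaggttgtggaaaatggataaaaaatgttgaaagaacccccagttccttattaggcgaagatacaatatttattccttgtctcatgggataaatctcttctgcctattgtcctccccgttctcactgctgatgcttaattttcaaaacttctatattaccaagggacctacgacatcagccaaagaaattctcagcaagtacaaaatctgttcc

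The Pou4f1 stretch of 131 bases was 80.9% G or C with 30 CpG dinucleotides, and that of Pou4f2, 250 bases long, was 70.8% G or C with 17 CpG. The Tfap2d stretch of 250 bases was 39.6% G or C with 5 CpG. Over the 32851 windows of 250 bases in the RefSeq table, the medians were 52.4% and 6 CpG, so the Brn3 genes lay above them and Tfap2d below on G and C. The GC box (GGGCGG, either strand) matched 2 times for Pou4f1 and 5 times for Pou4f2, with 1 overlapping pair in each, and is in 32.7% of all windows. TATAAA (12.4% of windows), CCAAT (33.8%), the AP-2 palindrome GCCNNNGGC (13.7%) and the Brn3 motif ATAATTAAT (0.259%) had 0 matches in the 250-base windows of the 4 genes. The Tfap2b window and 119 of 250 bases of the Pou4f1 window overlap exons of longer transcripts and are not printed.

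All 4 genes were present in both sham libraries, close to absent in the 6-OHDA library, and within or above the sham range of levels in both 6-OHDA+NDST3 libraries. Levels are given as CPM, the gene's reads scaled to the library's total with TMM factors. Pou4f1 was at 9.61 and 18.8 CPM in sham 1 and 2, 0.716 CPM in the 6-OHDA library, and 18.9 and 19 CPM in 6-OHDA+NDST3 1 and 2. Pou4f2 was at 2.25 and 9.96 CPM in sham, 0.116 CPM after 6-OHDA, and 13.2 and 7.24 CPM after NDST3. For both Brn3 genes the 6-OHDA library lay below every other library; the NDST3 values of Pou4f1 were narrowly above both sham values, and those of Pou4f2 overlapped sham.

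Tfap2b was at 9.86 and 20.8 CPM in sham 1 and 2, 0.871 CPM in the 6-OHDA library, and 24.2 and 20.7 CPM in 6-OHDA+NDST3 1 and 2. Tfap2d was at 3.36 and 19 CPM in sham, 0.387 CPM after 6-OHDA, and 24.4 and 7.3 CPM after NDST3. The 6-OHDA library was again lowest, and for both AP-2 genes the sham and NDST3 ranges overlapped. The plot of CPM by library shows all 20 values with the counting error.

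**Figure D1:**
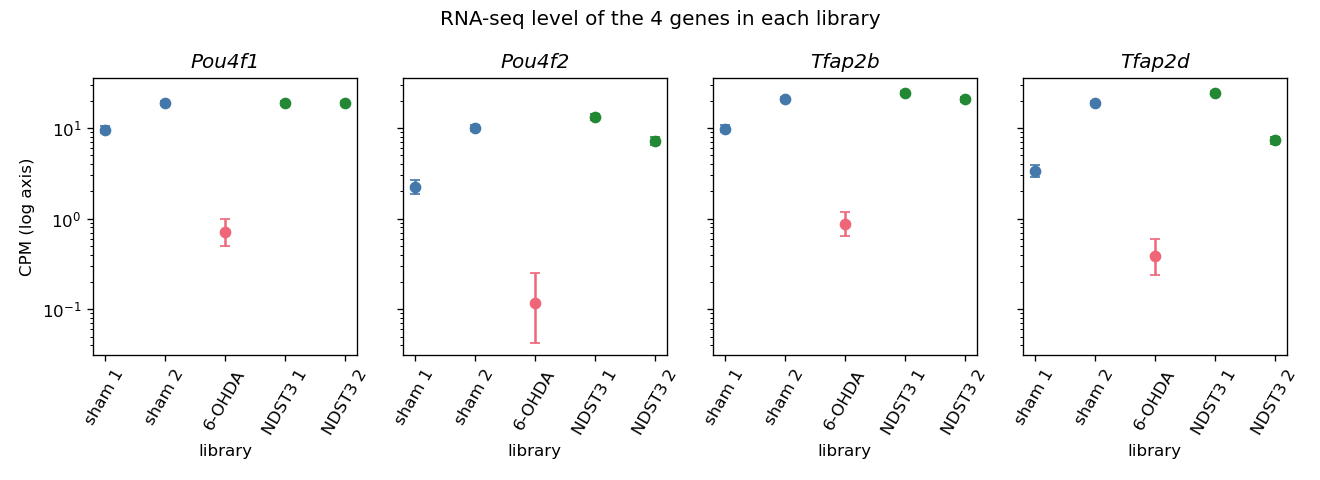
CPM (log axis) of Pou4f1, Pou4f2, Tfap2b and Tfap2d in each RNA-seq library: 2 sham (blue), 1 6-OHDA (red) and 2 6-OHDA+NDST3 (green). Bars are 95% Poisson intervals of the counts and cover counting error only; the 6-OHDA point is the lowest in all 4 panels, at 0.116 to 0.871 CPM.

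The low values rest on few reads. The 6-OHDA library held 37 reads of Pou4f1 (95% Poisson interval 26.1 to 51), 6 of Pou4f2 (2.2 to 13.1), 45 of Tfap2b (32.8 to 60.2) and 20 of Tfap2d (12.2 to 30.9). These intervals cover counting error only. The sham and NDST3 libraries held 116 to 1450 reads of each gene. Library totals ran from 51003699 to 70533326, and the 6-OHDA total (51364866) was near that of sham 1, the shallowest, so depth differed far less than these counts. In the 6-OHDA library the counts of the Brn3 and AP-2 genes were above the lowest listed count of 1 read, but the 6 reads of Pou4f2 were near it.

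Set against the single 6-OHDA library, the other libraries were 11.3 to 27.7 times higher for Tfap2b and 13.4 to 26.5 times higher for Pou4f1. Their ranges were wider for Pou4f2, 19.4 to 114 times, and for Tfap2d, 8.67 to 62.9 times. The edgeR fit gave, for 6-OHDA against sham, log2 fold changes of -4.31 ± 0.54 (SE) for Pou4f1, -5.70 ± 1.40 for Pou4f2, -4.14 ± 0.59 for Tfap2b and -4.85 ± 1.62 for Tfap2d. The SE was derived from the statistic of the edgeR fit, whose estimate of spread also draws on the other genes. Replicates came only from the 2 sham and the 2 NDST3 libraries, since the 6-OHDA group has no replicate. Among the 19300 genes, the 4 stood at places 29, 7, 37 and 14 from the lowest fold change. In that comparison 17.1% of tested genes were called lower and 18.8% higher at an adjusted p under 0.05 (edgeR quasi-likelihood test, Benjamini-Hochberg), and the choice of the 4 genes used this same contrast.

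For 6-OHDA+NDST3 against 6-OHDA, the log2 fold changes were 4.72 ± 0.55 for Pou4f1, 6.43 ± 1.42 for Pou4f2, 4.68 ± 0.60 for Tfap2b and 5.35 ± 1.65 for Tfap2d, at places 15, 4, 17 and 9 from the highest. Of all tested genes, 9.06% were called higher and 6.59% lower. Without sham 1 or without sham 2, 0 genes of the whole table were called in either comparison with the 6-OHDA library, and without NDST3 1 only 1 gene was called for 6-OHDA+NDST3 against 6-OHDA, so the calls of list genes given below are lost in those fits. Both comparisons share the 6-OHDA library, so a library low in a gene gives both differences at once. For 6-OHDA+NDST3 against sham the values were 0.41 ± 0.33, 0.74 ± 0.72, 0.55 ± 0.36 and 0.49 ± 0.93, also given without a test. In this comparison 0% of tested genes were called higher and 0% lower by edgeR, while 2744 genes had an unadjusted p under 0.05 and DESeq2 called 1023.

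The members were not equally steady within a group. Sham 2 was above sham 1 for all 4 genes, by 1.96 times for Pou4f1, 2.11 for Tfap2b, 4.42 for Pou4f2 and 5.67 for Tfap2d. A ratio at least as far from 1 between the sham libraries was seen for 7.96%, 6.56%, 1.03% and 0.554% of tested genes. The NDST3 libraries agreed for Pou4f1 (ratio of NDST3 1 to NDST3 2 of 0.998) and Tfap2b (1.17), and were apart for Pou4f2 (1.82) and Tfap2d (3.33). Because of this spread, the difference between NDST3 and sham depended on the sham library: without sham 2 it was 0.98, 2.18, 1.18 and 2.23 on the log2 scale for Pou4f1, Pou4f2, Tfap2b and Tfap2d, and without sham 1 it was 0.01, 0.04, 0.11 and -0.27. Without NDST3 1, that of Tfap2d was -0.62.

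Per length, as FPKM (fragments scaled to transcript length and library size), Pou4f1 ran at 1.83 and 3.34 in sham, 0.118 after 6-OHDA, and 3.48 and 3.53 after NDST3. Tfap2b was close to it in every library, at 1.75, 3.07, 0.132, 3.75 and 3.43 FPKM in the same order. The FPKM ratio of Pou4f1 to Tfap2b was 1.05 and 1.09 in sham, 0.894 after 6-OHDA, and 0.929 and 1.03 after NDST3. This pair, from different families and chromosomes, stayed near 1 to 1 while the CPM of each gene moved by up to 26.5 and 27.7 times. Both genes were chosen on these RNA-seq values, so a shared fall in the 6-OHDA library comes with the choice.

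Pou4f2 ran at 0.665 and 2.81 FPKM in sham, 0.0317 after 6-OHDA, and 3.79 and 2.18 after NDST3. Tfap2d was at 0.786, 4.4, 0.0884, 5.6 and 1.74 FPKM. Their ratio, Pou4f2 to Tfap2d, was 0.846, 0.639, 0.358, 0.677 and 1.25, the 6-OHDA value resting on 6 and 20 reads. Within the families the ratios also moved more than that of Pou4f1 to Tfap2b. Pou4f1 to Pou4f2 ran from 0.918 to 3.74, the highest value being that of the 6-OHDA library with 6 Pou4f2 reads. Tfap2b to Tfap2d ran from 0.669 to 2.22. The order of the 4 genes per length therefore was not fixed, with Tfap2d highest in sham 2 and NDST3 1 and Pou4f1 or Tfap2b highest in the other libraries.

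**Figure D2:**
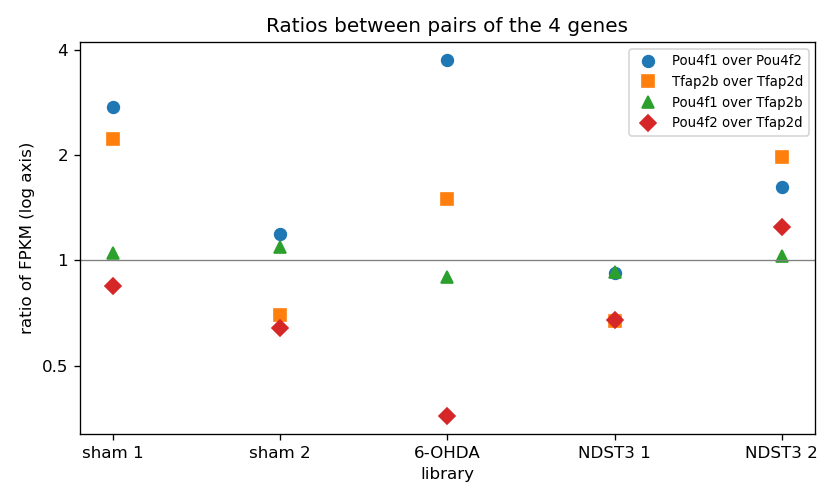
Ratio of FPKM (log axis) between pairs of the 4 genes in each RNA-seq library, 1 point per library and pair. Pou4f1 over Tfap2b stays between 0.894 and 1.09, while Pou4f1 over Pou4f2 runs from 0.918 to 3.74.

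The likeness of 2 genes was measured as the root mean square difference of log2(CPM + 0.5), each centered on its mean over the 5 libraries. It was 0.10 between Pou4f1 and Tfap2b, 0.32 between Pou4f2 and Tfap2d, 0.37 between Pou4f2 and Tfap2b, and 0.46 between Pou4f1 and Pou4f2. The AP-2 neighbors on chromosome 1 were further apart, at 0.62, and Pou4f1 and Tfap2d at 0.70. Outside the 4 genes, the nearest to Pou4f1 were Xkr7 (0.43), Mab21l1 (0.54) and Glra1 (0.54), and to Tfap2b Xkr7 (0.50), Mab21l1 (0.55) and Ankfn1 (0.58). The nearest to Pou4f2 were Barhl1 (0.52), Lhx9 (0.66) and Mab21l1 (0.70), and to Tfap2d Barhl1 (0.55), Gm14204 (0.76) and Mab21l1 (0.78). Points of this measure are 5 libraries in 3 groups, and no test was made. Likeness among the 4 genes is in part given by their choice on the same RNA-seq values.

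These neighbors include transcriptional regulators and a neurotransmitter receptor. Barhl1, a BarH-like homeodomain factor, was at 4.21 and 15.2 CPM in sham, 1.36 after 6-OHDA, and 16.7 and 7.66 after NDST3, so it shared the low sham 1 and the higher NDST3 1 of Tfap2d. Lhx9, a LIM homeodomain factor, had 13.7 and 41.2 CPM in sham, 7.59 after 6-OHDA, and 48.7 and 39.1 after NDST3. Glra1, a glycine receptor subunit, had 20 and 25.4, 1.12, and 19.2 and 12.1 CPM.

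The other listed members of both families were at lower levels. Pou4f3 (Brn3c, known from hair cells) had 0.0971 and 0.42 CPM in sham, 0.0387 after 6-OHDA, and 0.739 and 0.586 after NDST3; its log2 fold changes of -2.72 ± 1.24 and 4.02 ± 1.20 did not pass the test (adjusted p = 0.149 and 0.0788, edgeR). Tfap2a had 1.11 and 1.55, 1.06, and 0.806 and 1.52 CPM, a log2 change of -0.32 ± 0.53 after 6-OHDA. Tfap2c and Tfap2e were not listed. In this list 0 of 2 genes were called in each comparison.

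Of 13 genes known as partners or regulators of Brn3 or AP-2 factors, 12 were tested. After 6-OHDA, 2 were called higher and 1 lower, beside 18.8% and 17.1% over all tested genes. With NDST3 against 6-OHDA, 1 was called higher and 1 lower, beside 9.06% and 6.59%. Trp53, whose product p53 binds Brn3a, had log2 changes of 0.87 ± 0.14 after 6-OHDA and -0.66 ± 0.14 with NDST3 (adjusted p = 0.0118 and 0.0435, edgeR). Kctd15, an AP-2 inhibitor, rose by 0.61 ± 0.14 after 6-OHDA (adjusted p = 0.0297, edgeR). Wwox, which binds AP-2 gamma, changed by -0.83 ± 0.15 and 0.70 ± 0.15 (adjusted p = 0.0146 and 0.0432, edgeR). The median log2 change of the list, 0.06 and -0.12, was close to that of all tested genes, -0.0025 and 0.0029.

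The list of retinal and sensory neuron genes that work with Brn3 factors had 12 of 14 tested. After 6-OHDA, 1 was called higher and 3 lower, beside 18.8% and 17.1% over all tested genes. With NDST3, 1 was called higher, beside 9.06%. Ebf3, a helix-loop-helix factor of differentiating neurons, was at 46.3 and 61.0 CPM in sham, 6.91 after 6-OHDA, and 46.7 and 31.3 after NDST3 (log2 -2.96 ± 0.35, then 2.5 ± 0.34; adjusted p = 0.00847 and 0.032, edgeR). Ebf1, of the same family, fell by 1.14 ± 0.18 after 6-OHDA. Runx1, which is also a factor of blood and microglial cells, rose by 3.49 ± 0.39. Atoh7, the factor upstream of Pou4f2 in the retina, was under 0.7 CPM in all libraries.

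Some of the other midbrain transcription factors were also lower. Of 19 listed, 18 were tested: 9 were called lower (17.1% over all tested genes) and 0 higher after 6-OHDA, and 3 higher and 0 lower with NDST3 against 6-OHDA. Their median log2 changes were -1.41 and 1.55, beside -0.0025 and 0.0029 for all tested genes. Pax7, a paired-box factor of the dorsal midbrain, was at 14.9 and 15.1 CPM in sham, 0.678 after 6-OHDA, and 10.4 and 9.38 after NDST3. Its log2 changes of -4.46 ± 0.23 and 3.86 ± 0.22 (adjusted p = 0.00823 and 0.032, edgeR) were near those of Pou4f1 and Tfap2b.

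Gata3 and Lhx1, factors of midbrain GABAergic neurons, also moved both ways, Gata3 by -2.92 ± 0.40 and 2.48 ± 0.39 and Lhx1 by -2.44 ± 0.39 and 1.66 ± 0.38. En1, En2, Gata2, Tal1 and Lmx1b fell after 6-OHDA and did not pass the test with NDST3. Lmx1b had a log2 difference of -0.25 ± 0.30 between NDST3 and 6-OHDA. Otx2, a forebrain and midbrain factor also made by choroid plexus, was at 7.36 and 12.4, 9.06, and 13.4 and 19.9 CPM and did not pass the test. Without NDST3 2, 8 of the 18 were called higher with NDST3. By a fold of at least 2 with an unadjusted p under 0.05, 12 of the 18 genes were lower after 6-OHDA, and 9 to 13 when 1 sham or NDST3 replicate was left out.

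**Figure D3:**
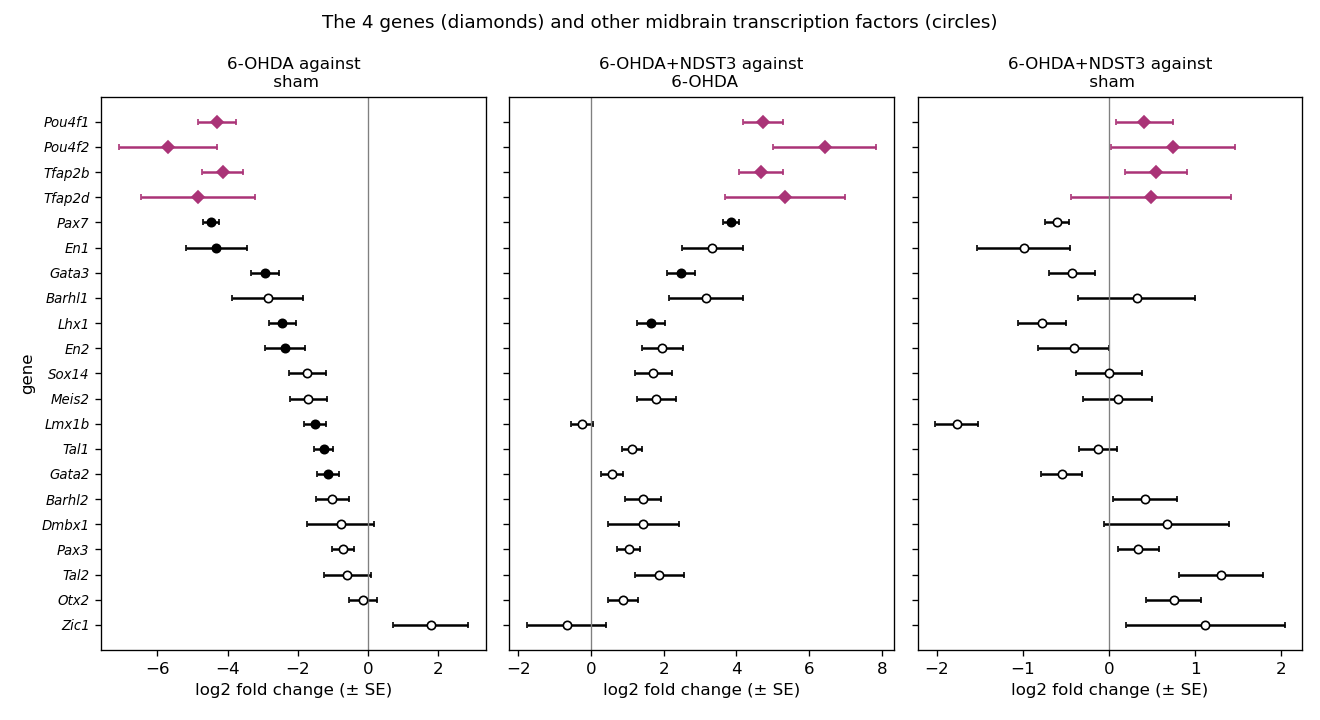
Log2 fold change (points) and its SE (bars) in the 3 RNA-seq comparisons for the 4 genes (diamonds, no test) and 17 other midbrain transcription factors (circles, filled where the adjusted p was under 0.05; 1 tested factor of the list is not drawn). The diamonds lie between -5.70 and -4.14 on the left and between 0.41 and 0.74 on the right, where no circle is filled; the horizontal scales differ between panels.

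Markers of neurons in general had smaller changes than the 4 factors, a difference that was not tested. The choice of the 4 factors used this same contrast, which favors large changes in them. Slc17a6, the glutamate transporter of tectal and other subcortical excitatory neurons, was at 263 and 395 CPM in sham, 98.9 after 6-OHDA, and 339 and 355 after NDST3 (log2 -1.73 ± 0.28 and 1.81 ± 0.28; adjusted p = 0.0119 and 0.0339, edgeR). As a share of Slc17a6, Pou4f1 was 3.66% and 4.77% in sham, 0.724% after 6-OHDA, and 5.59% and 5.35% after NDST3. The share of Tfap2b was 3.75% and 5.28%, 0.881%, and 7.13% and 5.84%. For Pou4f2 it was 0.857% and 2.52%, 0.117%, and 3.9% and 2.04%, and for Tfap2d 1.28% and 4.83%, 0.391%, and 7.19% and 2.06%. The 6-OHDA library was lowest for all 4 genes also against this marker, an outcome that their choice on this contrast made likely.

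Of 6 transmitter genes, 5 were called lower after 6-OHDA and 3 higher with NDST3, beside 17.1% and 9.06% over all tested genes. Slc17a7 was not called and was higher in the 6-OHDA library, at 30.7 and 12.2 CPM in sham, 142 after 6-OHDA, and 4.38 and 108 after NDST3. Of 10 neuron markers, 10 were called lower and 8 higher, their summed level being 7362 and 8166 CPM in sham, 2860 after 6-OHDA, and 6513 and 5790 after NDST3. Dopaminergic markers had 9 of 10 called lower and 4 higher, and their sum, 930 and 896, 167, and 279 and 274 CPM, was under sham in both NDST3 libraries, where the 4 factors were within or above their sham range. In these bulk libraries, fewer cells of a type and less RNA per cell cannot be told apart.

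The region markers also moved between libraries. Habenula markers, of a nucleus that uses Pou4f1, had 4 of 9 called lower (17.1% over all tested genes) and 1 higher (18.8%) after 6-OHDA. With NDST3, 3 were called higher (9.06%). Tac2, the higher call after 6-OHDA, was at 1.77 and 0.999, 6.74, and 1.61 and 3.74 CPM. Chrnb3 was called lower and stayed low with NDST3, at 15.5 and 17.7, 5.48, and 3.43 and 5.34 CPM. Among the habenula genes called both ways, Chrna3, a nicotinic receptor subunit, was at 5.22 and 9.18, 1.9, and 6.79 and 8.54 CPM. Htr5b was at 1.18 and 1.13, 0.155, and 1.02 and 2.3 CPM, and Nwd2 at 18.9 and 18.4, 4.78, and 11.5 and 16.0 CPM. Chrna3, Htr5b and Nwd2 were lowest in the 6-OHDA library, as the 4 factors were. Gpr151, a defining habenula gene, was at 0.33 and 0.116, 0.407, and 0.403 and 4.96 CPM, high only in NDST3 2, where Pou4f1 was level with NDST3 1. Of 10 sensory ganglion markers, where Pou4f1 is also known, Prdm12, Scn10a and Trpv1 were not listed; 2 of 7 were called lower and 1 higher after 6-OHDA, and 0 with NDST3. Of 6 cerebellar markers 4 were listed, among them Cbln1, which is not restricted to the cerebellum and was 1 lower and 1 higher call; Gabra6 and Pcp2 were not listed. Of 10 hindbrain markers only Hoxb4 and Slc6a5 were listed, and Slc6a5, the glycine transporter of glycinergic neurons, followed the 4 factors at 28.5 and 18.7, 1.26, and 20.7 and 11.1 CPM, the only call of that list in each comparison with the 6-OHDA library.

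Markers of other brain regions moved in both directions in the 6-OHDA library. The hypothalamic neuropeptide genes Hcrt and Pmch were at 58.5 and 100 CPM there, and at 0.0335 to 3.97 CPM in the other 4 libraries (log2 6.32 ± 1.06 and 5.46 ± 0.98 against sham; adjusted p = 0.0131 and 0.0152, edgeR). In all, 3 of 10 tested hypothalamic genes (Hcrt, Pmch and Oxt) were called higher after 6-OHDA, and Hcrt and Pmch lower with NDST3. Beside these and the list counts that follow, 18.8% of all tested genes were called higher and 17.1% lower after 6-OHDA. With NDST3 against 6-OHDA, 6.59% were called lower. Otp, a hypothalamic homeodomain factor, was called lower (14.2 and 5.23 CPM in sham, 1.2 after 6-OHDA), and Sim1, Trh and Nkx2-1 had log2 changes of -0.76 ± 0.45, -0.59 ± 0.36 and -0.09 ± 1.16 that did not pass the test. The cortical factors Neurod6 and Tbr1 were also called higher after 6-OHDA, and with Cux2 lower these were 3 calls among 6 listed genes of cortex and hippocampus; with NDST3 against 6-OHDA, Neurod6 was called lower. Thalamic markers summed to 254 and 296, 579, and 227 and 778 CPM with 0 of 7 called; 5 of 7 were called higher after 6-OHDA without NDST3 1, without NDST3 2 or with only the sham and 6-OHDA groups. The striatal markers summed to 187 and 184, 135, and 184 and 188 CPM with 1 of 7 called lower. Markers of the choroid plexus summed to 1126 CPM in NDST3 2 and to 9.93 to 52.5 CPM elsewhere, with 0 of 5 called. With 1 library in the 6-OHDA group, the region it covers and the lesion cannot be told apart for the 4 factors.

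Markers of non-neuronal cells moved as well. Microglial markers (7 of 7 tested called higher after 6-OHDA, 0 lower with NDST3) summed to 382 and 265 CPM in sham, 2563 after 6-OHDA, and 929 and 1294 after NDST3. Astrocyte markers had 4 of 6 called higher after 6-OHDA and 1 lower with NDST3, oligodendrocyte markers 1 of 6 higher and 0, and meningeal fibroblast markers 5 of 6 higher and then 5 of 6 lower. The shares over all tested genes were 18.8% higher after 6-OHDA and 6.59% lower with NDST3. The part of these cells in the low levels of the Brn3 and AP-2 genes was not tested. No list had a gene called in 6-OHDA+NDST3 against sham by edgeR.

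**Figure D4:**
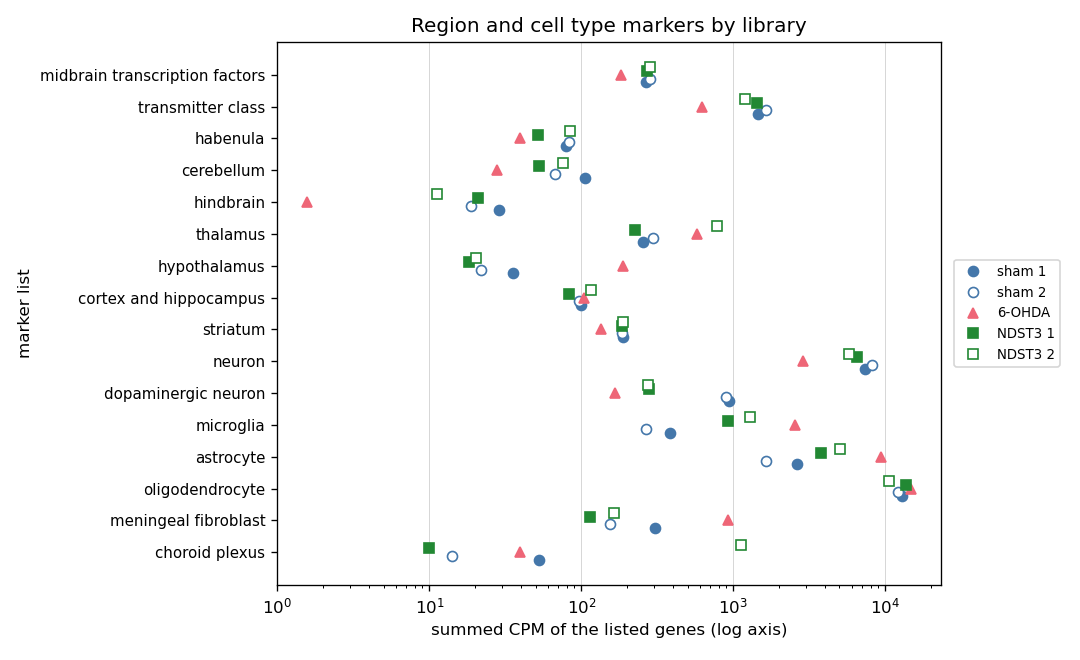
Summed CPM (log axis) of the genes of each marker list in each RNA-seq library: sham (circles), 6-OHDA (triangles) and 6-OHDA+NDST3 (squares), filled for the first and open for the second library of a group. The 6-OHDA library is lowest for neurons (2860) and hindbrain (1.57) and highest for microglia (2563) and hypothalamus (187).

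At the chromatin level, the ATAC-seq table, which lists 3582 regions within 1000 bases of a gene start, held 2 regions at the 4 genes, each 100 bases long and each from 1 library per group. The Tfap2b region, 129 bases upstream of the start by the authors' annotation, had a tag signal of 13.75 in sham, 6.25 after 6-OHDA and 8.85 after NDST3. With 1 added to each signal, the ratio of 6-OHDA to sham was 0.492, and 4.83% of regions had a ratio as low or lower; the median of all regions was 1.08. The ratio of NDST3 to 6-OHDA was 1.36, and that of NDST3 to sham 0.668.

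The Pou4f2 region, 58 bases upstream, had 12.61, 16.75 and 11.67, so the signal there was highest in the 6-OHDA group, whose separate RNA-seq library had the lowest RNA. Its ratios were 1.3 for 6-OHDA to sham and 0.714 for NDST3 to 6-OHDA, and 70.4% of regions had a 6-OHDA to sham ratio as low or lower. The 2 regions therefore pointed in opposite directions, without replicates for a test. Pou4f1 and Tfap2d had no listed ATAC-seq region. The CUT&RUN table lists 11424 regions with H3K27ac, a mark of active promoters and enhancers, and 0 of them were assigned to the 4 genes; the tables list selected regions, so this does not show that the mark was absent. Region sequences were not read, because the region coordinates do not match gene starts of GRCm38, although the submitters' notes name mm10: 10.5% of 2570 ATAC-seq regions and 3.81% of 9080 CUT&RUN regions lay within 2000 bases of a start of their gene.

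In the scRNA-seq table of 26650 genes and 9 clusters, values are means of the natural log of 1 plus the normalized count. Pou4f2 was not listed, and the other 3 genes were close to 0. Pou4f1 was highest in cluster 4 of the NDST3-treated group, at 0.00484, and was at 0 in cluster 4 of the 6-OHDA group. Tfap2b was at 0.0375 after 6-OHDA and 0.031 after NDST3 in cluster 5 and at most 0.000762 in any other cluster. Tfap2d was highest in cluster 2, at 0.00958 and 0.0177, and next in cluster 4, at 0.00776 and 0.00104.

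These means are near 0, the number of cells per cluster is not in the table, and no share of cells with a read can be had from it, so they are not read as expression by a cell type. In cluster 5 the median of the meningeal fibroblast markers was 0.0574 and 0.05, and that of the neuron markers 0.00258 and 0.00289. In cluster 2 the neuron median was highest of all clusters, 0.0452 and 0.0404, but the fibroblast median was higher there, 0.24 and 0.235, so neither cluster is named. Slc17a6 was at most 0.00856 in any cluster, and 67.1% of all table values were under 0.05. With 1 library per group, no difference of the 4 genes between the groups could be tested.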

How the data were processed

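Bulk RNA-seq (5 libraries), ATAC-seq, H3K27ac CUT&RUN and scRNA-seq tables of ICR mouse brain were used. Per the labels and the study's methods, the authors made the RNA-seq values with Trimmomatic, HISAT2 (build mm10) and StringTie; the deposited read counts per gene were tested and the deposited FPKM served for levels per length. The deposited TPM were not tested. The authors aligned ATAC-seq reads with Bowtie2 and called regions with MACS2; how the deposited tag signal was scaled is not given in the sources used here. The deposited scRNA-seq values, headed as mean counts, fit the natural log scale (ln of 1 plus a normalized count): back-transformed, each column sums to 5620 to 7561.

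Counts were fitted with edgeR 4.0.16 in R 4.3.3 (TMM, filterByExpr, quasi-likelihood test, 5 libraries in 3 groups, 2 residual degrees of freedom), with Benjamini-Hochberg adjustment over 19300 genes and calls at an adjusted p under 0.05. The biological coefficient of variation was 20.3%. The script was tested on simulated counts. Alternatives used DESeq2 1.42.0, limma 3.58.1 on log2(FPKM + 1) or log2(FPKM + 0.1), other scalings, no filter, a replicate block and left-out libraries. Named genes are the 4 factors, genes of 20 lists, and for each factor the 3 genes of nearest level profile with a mean of at least 1 CPM. The 4 genes and the lists were chosen with earlier results of these data known, so counts over lists are descriptions. Against doublets, the authors' methods name only an upper limit on genes per cell; with cluster means alone, doublets could not be examined here. A few listed genes are counted but not reported here by name.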

Additional observations from a re-analysis of the deposited data

How the results depend on the processing

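The log2 fold changes of the 4 factors were recomputed under 13 alternative settings, giving 156 values. Of these, 131 differed from the main fit by less than its SE, and 25 moved further. No sign changed in either comparison with the 6-OHDA library, while Tfap2d in 6-OHDA+NDST3 against sham (0.49) turned to -0.27 without sham 1 and to -0.62 without NDST3 1. In limma on log2(FPKM + 1), where the pseudocount is large beside these levels, the 6-OHDA against sham values shrank to between -1.65 (Pou4f1) and -1.29 (Pou4f2). The 6 alternative ATAC-seq ratios stayed near their values.

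The calls over all genes depend on the setting, and the cause was not tested unless stated. For 6-OHDA against sham, 6916 genes were called; a replicate block gave 1796, and leaving out 1 replicate gave 0 to 7140, with 0 without either sham library. For 6-OHDA+NDST3 against 6-OHDA, 3019 were called; only the 2 groups compared gave 0, the replicate block 0, limma on log2(FPKM + 0.1) 0, DESeq2 5194, and leaving out 1 replicate 0 to 3163, with 0 without either sham library and 1 without NDST3 1. For 6-OHDA+NDST3 against sham, 0 were called; DESeq2 gave 1023, the fold rule with unadjusted p 1131, and leaving out 1 replicate 0 to 111. Fits with fewer libraries have fewer residual degrees of freedom. The sham and NDST3 replicates share only a number: same-numbered deviations had r = -0.432 across 19300 genes, which are not independent replicates. A crossed replicate block, chosen after seeing the data, gave 4795 and 1194 genes in the last 2 comparisons.

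Recomputing the counts of list genes over the alternative settings gave 2160 values, of which 1708 stayed within 1.5 times and 452 did not. The 6-OHDA group is 1 library, and its 6 to 45 reads per factor limit the precision of every fold change against it.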
